A study of Mus musculus with 9 samples.

Results

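Here a set of 8 genes of the neuronal cytoskeleton and the growing axon was followed in laser-captured motor neurons of mice with spinal muscular atrophy (SMA). They were the microtubule-associated proteins Mapt (tau) and Map1b, the stathmins Stmn1, Stmn2 and Stmn3, the growth cone protein Gap43, the neuronal tubulin Tubb3 and the neuronal ubiquitin hydrolase Uchl1. Every probe set that the platform annotation assigns to one of these genes alone was taken, which gave 15 probe sets of 8 genes, out of 22626 probe sets on the array. Of these 15, 14 were bright enough to be tested, and every gene had at least 1 of them. The dim one was the third probe set of Map1b (1421850_at, 1.7 to 18 signal units).

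The study compared 3 groups of 3 mice, with 1 Affymetrix array per mouse. Wild-type mice and SMA mice had surgery with vehicle at postnatal day 1, and the third group was SMA mice that received cells on that day. The labels name the cells NSC, understood here as neural stem cells. All animals were killed at 13 days, so every group carried the surgery, and the 2 SMA groups shared the disease genotype. The strain and the alleles of the SMA mice were not given in the sources used here. Per the labels' protocols, the cords (lumbar region) were fixed by perfusion with paraformaldehyde, cut at 16 µm, and about 100 cells were collected per cap from 1 animal for each array. The RNA was amplified in a double procedure before labelling.

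Microtubules of the axon are built from tubulin dimers, and their growth and stability are set by proteins that bind either the polymer or the free dimers. Tau and Map1b bind along the polymer and stabilise it, and Map1b is the earlier of them in development. Stathmins bind free tubulin dimers and promote disassembly until they are phosphorylated. Stmn1 is a soluble protein of many dividing and immature cells, while Stmn2 and Stmn3 carry a membrane anchor and are made mostly by neurons. Gap43 is a substrate of protein kinase C at the inner membrane of growth cones, and Stmn2 and Gap43 are among the best known genes that motor neurons raise while axons grow or regrow. Tubb3 is a beta-tubulin largely restricted to neurons, and Uchl1 is an abundant deubiquitinating enzyme of neurons.

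The values are MAS5 signals, a linear brightness per probe set in arbitrary units, and each array had been scaled to the same trimmed mean of 100. Signals of different probe sets are not amounts of RNA on a common scale, so no gene's level is set against another's. Median signals were 31.4 to 35.8 per array. Of 27 general neuronal markers with a probe set, none of them a member, 25 were bright enough to test; the neurofilament gene Nefl read 871 ± 272 (SD, n = 9). Of 13 motor neuron markers only Isl2 (59.5 ± 28.2) and Ache (42.6 ± 21.6) were, while the acetylcholine transporter Slc18a3 read 13.4 ± 11.9 and the transcription factor Isl1 8.83 ± 3.82. All 14 oligodendrocyte markers were bright, with Mbp at 10700 as their highest mean. The captures therefore held transcripts of neurons and glia, and the defining motor neuron markers Slc18a3, Slc5a7, Isl1 and Mnx1 were at or below 41.7 on every array. In such samples, fewer cells of a type and less RNA per cell cannot be told apart.

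The upstream sequences of 4 of the 8 genes (Map1b, Stmn3, Tubb3 and Uchl1) were in the RefSeq promoter table of build GRCm38.p6. Those of Tubb3 and Stmn3 are shown because their signals varied together over the arrays, and that of Map1b because its signal did not follow them. Each is the 250 bases before the annotated start, in the direction of the gene. Capitals mark matches, on either strand, to the TATA box TATAAA, the CCAAT box CCAAT or the GC box GGGCGG.
Tubb3, chr8:123411303-123411552, plus strand: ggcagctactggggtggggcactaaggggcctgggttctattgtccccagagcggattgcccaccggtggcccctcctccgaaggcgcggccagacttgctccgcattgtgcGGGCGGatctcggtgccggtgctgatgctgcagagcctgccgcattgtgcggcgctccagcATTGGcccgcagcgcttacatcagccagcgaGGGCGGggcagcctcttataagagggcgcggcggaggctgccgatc
Stmn3, chr2:181314501-181314750, minus strand: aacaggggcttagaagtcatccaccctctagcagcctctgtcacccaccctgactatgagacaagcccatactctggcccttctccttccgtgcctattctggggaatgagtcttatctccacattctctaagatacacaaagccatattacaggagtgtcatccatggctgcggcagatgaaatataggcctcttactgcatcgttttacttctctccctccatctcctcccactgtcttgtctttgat
Map1b, chr13:99516603-99516852, minus strand: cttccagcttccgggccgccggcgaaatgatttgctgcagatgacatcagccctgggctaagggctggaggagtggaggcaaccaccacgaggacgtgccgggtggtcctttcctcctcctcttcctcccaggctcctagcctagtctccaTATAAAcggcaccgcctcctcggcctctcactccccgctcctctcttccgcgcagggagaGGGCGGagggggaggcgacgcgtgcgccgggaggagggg
The Tubb3 window had 2 GC boxes, 138 and 46 bases before the start, and 1 CCAAT box on the opposite strand, 77 bases before it, with 68% G and C. The Map1b window had 1 TATA box 99 bases before the start and 1 GC box 39 bases before it, with 66.4% G and C. The Stmn3 and Uchl1 windows held none of the 3 motifs and had 48.8% G and C each. Of 32851 windows of this length in the table, 12.4% held the TATA box, 33.8% the CCAAT box and 32.7% the GC box. The 3 motifs overlapped nowhere in these windows. A match describes the letters of the window and is no evidence of binding.

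No member differed between groups past the threshold, an adjusted p of 0.05 over all tested probe sets (limma, Benjamini-Hochberg). The threshold was passed by 0 of 14 member probe sets in each of the 3 comparisons, where 0.0442% of all 11313 tested probe sets passed in SMA minus wild type and 0% in the others. At an unadjusted p under 0.05 there was 1 of 14 in each comparison (7.14%), against 6.04% of all tested probe sets in SMA minus wild type, 4.77% in transplanted SMA minus SMA and 6.55% in transplanted SMA minus wild type. Groups did not overlap for 2 member probe sets in SMA minus wild type (14.3% against 11.4% of all), 1 in transplanted SMA minus SMA (7.14% against 9.11%) and 2 in transplanted SMA minus wild type (14.3% against 14.1%). These shares lie near the background. Every one of the counted member probe sets was a probe set of Mapt.

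**Figure D1:**
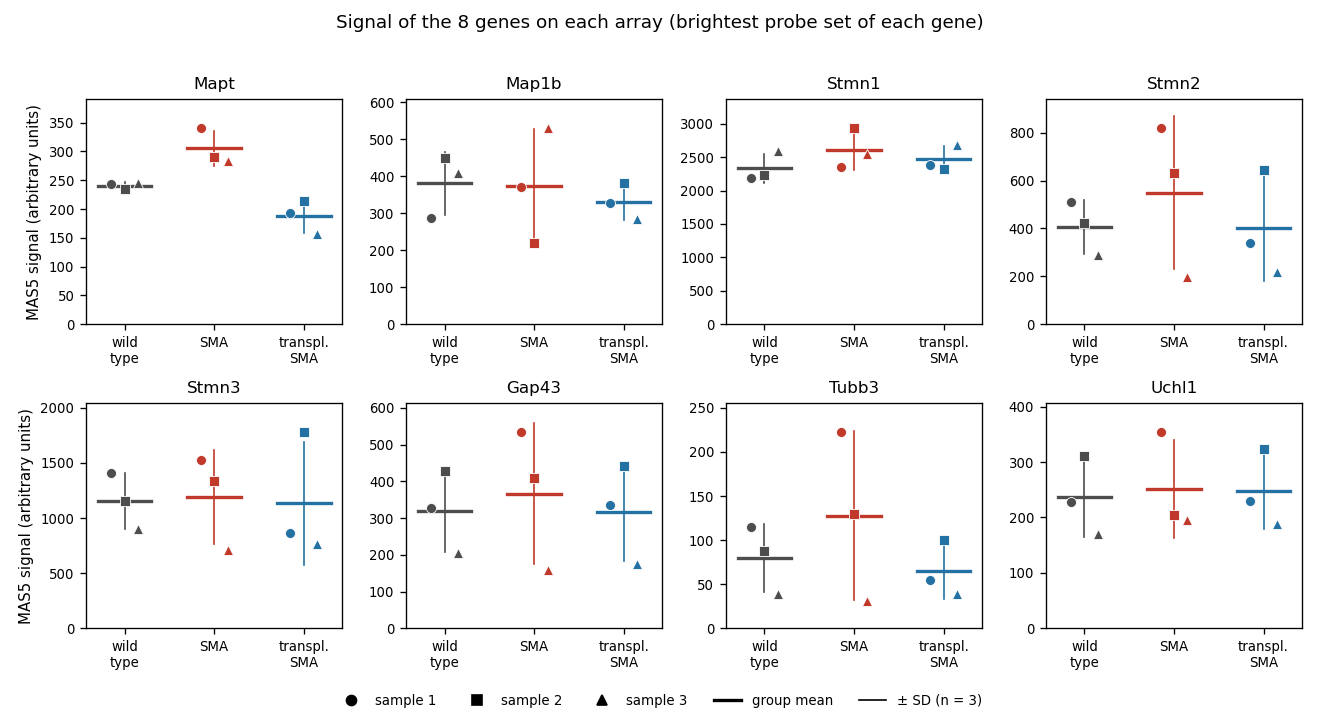
MAS5 signal (arbitrary units, vertical axis from 0) of the brightest probe set of each of the 8 genes on the 9 arrays, by group; points are arrays, with the shape giving the sample number, thick bars are group means and thin lines ± SD (n = 3). Mapt is the gene whose 3 groups do not overlap, while Stmn2, Stmn3, Gap43, Tubb3 and Uchl1 are lowest on sample 3 of every group.

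Mapt had the clearest order of groups, and its probe sets disagreed. Its brightest probe set, 1424719_a_at, read 243.2, 234.2 and 244.9 on the wild-type arrays, 340.4, 291 and 284.2 on the SMA arrays, and 192.6, 214.6 and 156.7 on the transplanted arrays. Every SMA array lay above every wild-type array, and every transplanted array lay below both other groups. In transplanted SMA minus SMA the difference in log2(signal + 16), the scale of all differences given here, was -0.66 (SE 0.17, 95% interval -1.03 to -0.29, limma adjusted p = 0.933). By size of p it was number 14 of 11313 probe sets in that comparison. Between SMA and wild type the difference was 0.32 (SE 0.17, -0.052 to 0.69, adjusted p = 0.867), and between transplanted SMA and wild type -0.34 (SE 0.17, -0.71 to 0.029, adjusted p = 0.76). These comparisons share arrays, so a value high in SMA enters transplanted SMA minus SMA and SMA minus wild type with opposite signs. Over the alternative settings the difference of transplanted SMA minus SMA ranged from -0.75 to -0.38, and its smallest adjusted p was 0.395. With the mean of the 3 Mapt probe sets in place of the brightest it was -0.38, and transplanted SMA minus wild type was -0.012.

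The second probe set, 1424718_at, read 258.3, 219.1 and 163.3 on the wild-type arrays, 327.4, 307.2 and 152.6 on the SMA arrays, and 162, 215.3 and 148.4 on the transplanted arrays. Its groups overlapped, with SMA 3 below every wild-type array. Its differences had the signs of the brightest probe set, with -0.49 (SE 0.28, adjusted p = 0.933) in transplanted SMA minus SMA and 0.23 (SE 0.28, adjusted p = 0.9997) in SMA minus wild type. The dimmest, 1417885_at, read 28.1, 43.2 and 37.3 on the wild-type arrays, 82.4, 53.6 and 48.9 on the SMA arrays, and 64.8, 68.7 and 49.8 on the transplanted arrays. Here both SMA groups lay above wild type and overlapped each other. The wild-type values lay near the median signals of those arrays, 31.4, 31.6 and 34.6, so the differences from wild type rest on dim values. Its differences were 0.56 (SE 0.21, 95% interval 0.098 to 1.02, adjusted p = 0.732) in SMA minus wild type, 0.0063 (SE 0.21) in transplanted SMA minus SMA, and 0.56 (SE 0.21, 0.10 to 1.03, adjusted p = 0.699) in transplanted SMA minus wild type.

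The disagreement was also taken within each array, as log2(signal + 16) of 1417885_at minus that of 1424719_a_at; the added 16 makes it smaller than a plain log2 ratio. This difference was -2.56, -2.08 and -2.29 on the wild-type arrays, -1.86, -2.14 and -2.21 on the SMA arrays, and -1.37, -1.44 and -1.39 on the transplanted arrays. The transplanted arrays lay above all 6 others, by a mean of 0.67 over SMA and 0.91 over wild type. An exact permutation test gave p = 0.1 for each (two-sided, 3 arrays against 3, the smallest p this design allows), and p = 0.3 for SMA minus wild type. The pair was chosen after the disagreement was seen, so these p-values restate it. For 1417885_at minus 1424718_at, the transplanted arrays lay at -1.14, -1.45 and -1.32 and SMA 3 lay among them at -1.38. There the transplanted mean was 0.495 above SMA (exact permutation p = 0.2) and 0.82 above wild type (exact permutation p = 0.1). The remaining pair, 1424718_at minus 1424719_a_at, gave 0.17 over SMA (exact permutation p = 0.9). In the naming of these arrays, _a_at marks a probe set that reads several transcripts of 1 gene. Which tau transcripts each probe set reads was not given in the sources used here, and its part in the result was not tested.

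**Figure D2:**
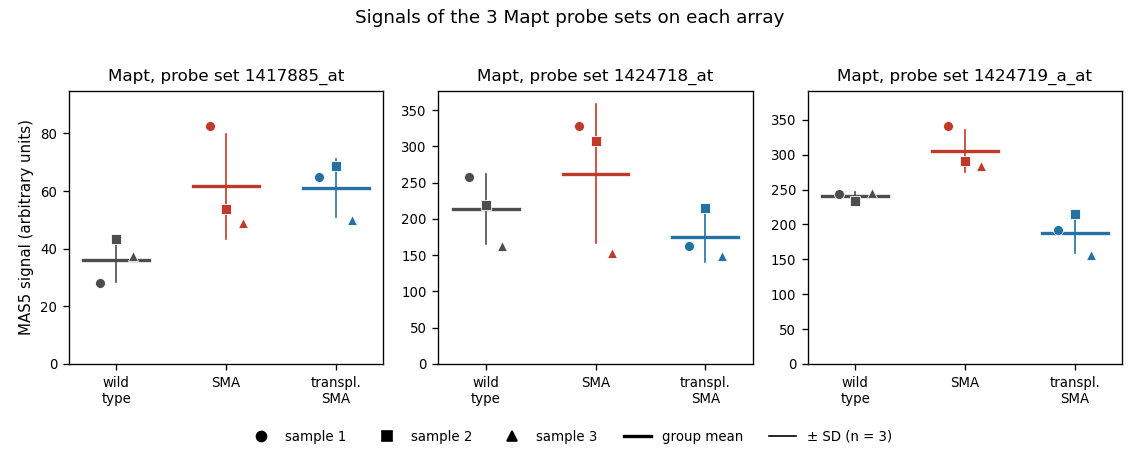
MAS5 signal (arbitrary units, vertical axis from 0) of the 3 Mapt probe sets on the 9 arrays, by group; points are arrays, thick bars are group means and thin lines ± SD (n = 3). The transplanted arrays are the lowest group for 1424719_a_at, with 156.7 to 214.6, and lie beside the SMA arrays for 1417885_at, with 49.8 to 68.7.

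Map1b, the other structural microtubule protein, gave group means that lay close together and arrays that did not. Its brightest probe set, 1450397_at, read 285.8, 449.4 and 407.9 on the wild-type arrays, 371.7, 219.5 and 529.3 on the SMA arrays, and 327.1, 381.7 and 284.1 on the transplanted arrays. The SMA group held both the highest and the lowest array, and all groups overlapped. Differences were -0.086 (SE 0.29, 95% interval -0.72 to 0.55, limma adjusted p = 0.9997) in SMA minus wild type and -0.094 (SE 0.29, -0.73 to 0.54) in transplanted SMA minus SMA. The probe set 1421851_at ran in parallel, from 69.1 on SMA 2 to 188.1 on SMA 3 (r = 0.912 between them over the 9 arrays, as a description of probe sets of 1 gene).

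Stmn1, the soluble stathmin, was the member that varied least. Its brightest probe set, 1415849_s_at, read 2184.9, 2225.4 and 2584.5 on the wild-type arrays, 2348.4, 2932.6 and 2545.8 on the SMA arrays, and 2385.4, 2326.4 and 2687.3 on the transplanted arrays. The highest array was 1.34 times the lowest, and the groups overlapped. The difference was 0.16 in SMA minus wild type (SE 0.14, 95% interval -0.15 to 0.47) and -0.077 in transplanted SMA minus SMA (SE 0.14, -0.39 to 0.23), and limma's adjusted p was 0.986 and 0.967. The suffix _s_at marks a probe set that can read transcripts of more than 1 gene, and the dim 1448113_at of Stmn1 (39 to 70.5) gave 0.20 and -0.20 (SE 0.2 each).

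Stmn2, the stathmin of growing axons, read 512.2, 421.7 and 287.6 on the wild-type arrays, 818.9, 633.2 and 196.7 on the SMA arrays, and 339.6, 644.9 and 217.7 on the transplanted arrays (1423280_at). SMA held both the highest and the lowest array, 4.16 times apart, and the groups overlapped. Group means were 407 ± 113, 550 ± 319 and 401 ± 220 (SD, n = 3 each). The difference was 0.24 in SMA minus wild type (SE 0.49, 95% interval -0.85 to 1.33, limma adjusted p = 0.9997) and -0.36 in transplanted SMA minus SMA (SE 0.49, -1.44 to 0.73, adjusted p = 0.96). Each interval covers more than 1 log2 unit on one side of 0, which is more than a doubling or a halving. The other probe set, 1423281_at, ran from 60.1 on SMA 3 to 371.6 on SMA 1 and gave 0.37 (SE 0.59) and -0.60 (SE 0.59).

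Stmn3, its neuronal relative, read 1407.7, 1153.8 and 899.7 on the wild-type arrays, 1527.5, 1340.7 and 713.4 on the SMA arrays, and 863.5, 1777.1 and 763.7 on the transplanted arrays (1435113_x_at). SMA 3 and transplanted SMA 3 were lowest, as for Stmn2, while transplanted SMA 2 was highest, and the groups overlapped. The difference was 0.00075 in SMA minus wild type and -0.10 in transplanted SMA minus SMA (SE 0.35 each, 95% intervals -0.77 to 0.77 and -0.87 to 0.66). The suffix _x_at marks probes that may cross-hybridise, and the unmarked probe set 1460181_at, at 120.9 to 290.1, gave 0.36 and -0.33 (SE 0.29 each, limma adjusted p = 0.975 and 0.935).

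Gap43, the growth cone protein, read 326.7, 428.1 and 205.8 on the wild-type arrays, 533.1, 408.8 and 158.3 on the SMA arrays, and 336.7, 441.4 and 175.6 on the transplanted arrays. SMA spanned the widest range, and all 3 groups overlapped. Differences were 0.089 in SMA minus wild type (SE 0.44, 95% interval -0.88 to 1.06), -0.13 in transplanted SMA minus SMA (SE 0.44, -1.10 to 0.84) and -0.042 in transplanted SMA minus wild type (SE 0.44).

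Tubb3, the neuronal tubulin, read 114.5, 87.4 and 38.6 on the wild-type arrays, 222.1, 129.9 and 31.6 on the SMA arrays, and 54.6, 100.4 and 39.2 on the transplanted arrays. The highest array was 7.03 times the lowest, both were SMA arrays, and the groups overlapped. On the arrays numbered 3, Tubb3 lay near the median signal of the array (34.5 to 34.6), so its wide range rests partly on dim values. Differences were 0.39 in SMA minus wild type (SE 0.53, 95% interval -0.78 to 1.56) and -0.62 in transplanted SMA minus SMA (SE 0.53, -1.79 to 0.55, limma adjusted p = 0.933). Uchl1, the ubiquitin hydrolase, read 227.3, 311.6 and 169.4 on the wild-type arrays, 353.4, 204.3 and 196.1 on the SMA arrays, and 230, 324.2 and 189.1 on the transplanted arrays. Its group means were 236 ± 71.5, 251 ± 88.5 and 248 ± 69.3 (SD, n = 3 each), with overlapping groups and differences of 0.075 (SE 0.29) in SMA minus wild type and -0.0027 (SE 0.29) in transplanted SMA minus SMA.

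**Figure D3:**
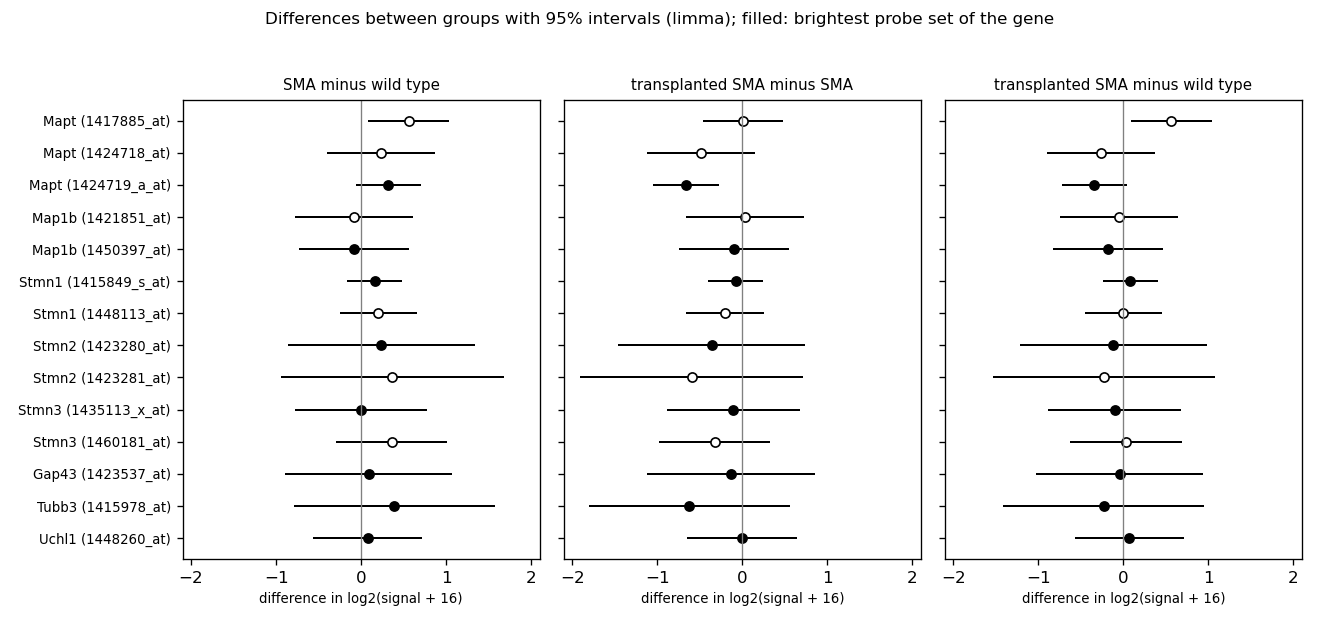
Difference between groups in log2(signal + 16) (horizontal axis) for the 14 tested probe sets in the 3 comparisons; points are limma estimates, lines their 95% intervals, and filled points the brightest probe set of a gene. The interval of Mapt 1424719_a_at lies below 0 in transplanted SMA minus SMA (-1.03 to -0.29), and those of Stmn2 and Tubb3 are the widest.

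By the brightest probe set, 7 of the 8 genes had a positive difference in SMA minus wild type (median 0.12, against 0.0039 over 7254 named genes). In transplanted SMA minus SMA all 8 were negative (median -0.12, against 0.0038), and in transplanted SMA minus wild type 6 of 8 were (median -0.11, against -0.0085). These counts describe 8 genes that vary together and comparisons that share the SMA arrays, so they are not 8 separate observations. The median of the 8 genes relative to the wild-type mean was 0.049, 0.14 and -0.37 on the wild-type arrays, 0.53, 0.30 and -0.43 on the SMA arrays, and -0.20, 0.42 and -0.57 on the transplanted arrays. The 3 groups overlapped in this value too.

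Most members had a wide spread between arrays of the same group. The within-group SD of log2(signal + 16) was 0.84 for Tubb3, 0.78 for Stmn2, 0.69 for Gap43 and 0.53 for Stmn3, against a median of 0.26 over all tested probe sets. These lie at percentiles 98.8, 98.5, 97.5 and 93.4 of 11313. Map1b (0.42) and Uchl1 (0.41) lay at percentiles 84.3 and 83.5. Stmn1 (0.14) and Mapt (0.15) lay at 7.58 and 9.73, and the group means of that Mapt probe set, 1424719_a_at, were 0.66 apart, percentile 93.7 of all. The other Mapt probe sets had within-group SDs of 0.40 (1424718_at, percentile 82.6) and 0.25 (1417885_at, percentile 46.2). Gap43 and Uchl1 had group means 0.13 and 0.075 apart, at percentiles 17.8 and 6.26.

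**Figure D4:**
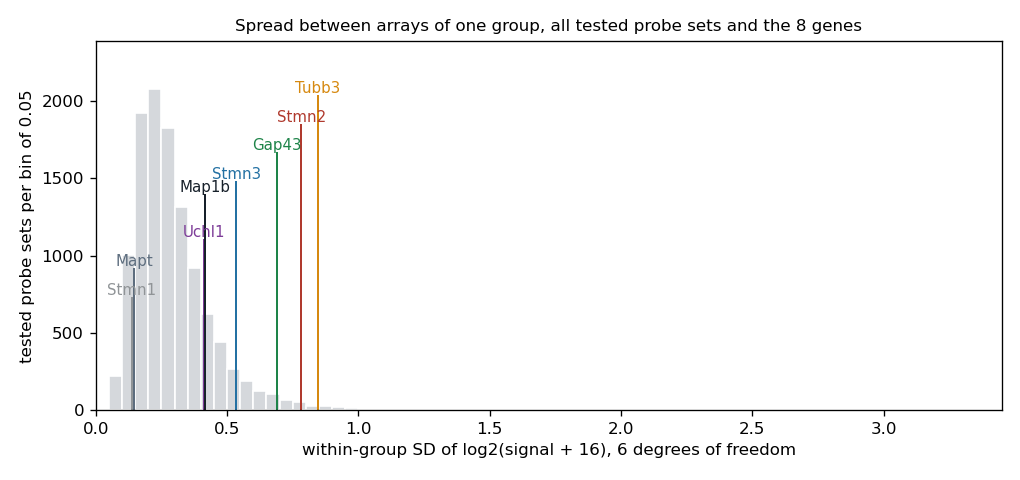
Number of tested probe sets (vertical axis) by within-group SD of log2(signal + 16) (horizontal axis, bins of 0.05), with a line for the brightest probe set of each of the 8 genes; the heights of the lines carry no value. Stmn1 and Mapt lie on the left side of the distribution, at 0.14 and 0.15, and Gap43, Stmn2 and Tubb3 in its right tail.

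Stmn2, Stmn3, Gap43 and Tubb3 varied together over the 9 arrays; this set of 4 was chosen after its values were seen. Their 6 pairs had Pearson r of 0.858 to 0.961 and Spearman rho of 0.8 to 0.95. Of all 28 pairs of members, 7 passed in an exact permutation test of r over the 9 arrays (two-sided, adjusted p of 0.05 or less over the 28 pairs): these 6, with adjusted p of at most 0.0196, and Gap43 with Uchl1 (r = 0.823, adjusted p = 0.0431). By rho, Gap43 with Tubb3 did not pass (adjusted p = 0.0553 in the exact permutation test). Without the 2 arrays farthest from the median the 6 values of r were 0.813 to 0.95, and after taking out the group means 0.86 to 0.966. Among 7253 other genes, Tubb3 was number 6 and Stmn3 number 17 in likeness to Stmn2. Of all pairs of the 7254 named genes, 1% had r of 0.8 or more and 0.13% had 0.9 or more.

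Of the other members, Uchl1 had 1 pair past the threshold with this set (Gap43), and Mapt, Map1b and Stmn1 had 0. Uchl1 had r of 0.716 with Stmn2 and 0.722 with Tubb3, neither past the threshold (exact permutation test, adjusted p = 0.113 each). Mapt had r of 0.367 to 0.55 with the 4 genes, and 0.621 to 0.735 after the group means were taken out. Map1b had r of -0.352 to -0.235 with them and Stmn1 -0.389 to -0.266, none past the threshold (exact permutation test, adjusted p = 0.506 or more). The 2 probe sets of Stmn2 correlated at r = 0.974 and those of Stmn3 at 0.866, which is the same gene measured again on the same arrays.

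The sample labelled 3 was the lowest of its group in all 3 groups for 5 of the 8 genes by brightest probe set (Stmn2, Stmn3, Gap43, Tubb3 and Uchl1). Counted by probe set it was 7 of 15 member probe sets (46.7%), the untested one of Map1b included, against 11.4% of all tested probe sets. The other Stmn3 probe set, 1460181_at, was not among them. Most of these genes varied together, so they are not separate observations. The median of Stmn2, Stmn3, Gap43 and Tubb3 relative to the wild-type mean was -0.49, -0.91 and -0.73 on those 3 arrays, and -0.29 to 0.89 on the other 6. The hybridisation controls, which are RNAs added to each array's sample, were also highest on those arrays, at 1254.4, 1440.2 and 1205.1 against 812.8 to 973.5. The 3'/5' ratio of the actin control, a sign of RNA quality that is higher where transcripts are truncated, was highest on SMA 3 (4.32) and next on wild type 3 (3.66). The 6 arrays not numbered 3 ranged from 2.48 to 3.11, and transplanted SMA 3 lay among them at 2.76. The same ratio of the Gapdh control gave another order. It was highest on SMA 1 (4.26), the array where Stmn2, Gap43, Tubb3 and Uchl1 were highest. SMA 3 followed at 3.92, transplanted SMA 3 at 3.82 and wild type 3 at 3.63, and the remaining arrays read 3.19 to 3.52. Over the 6 arrays not numbered 3, r of the 6 pairs was 0.54 to 0.92. The part of the controls and of RNA quality in the result was not tested.

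Neuronal and glial marker levels differed between the same arrays. The neuron list, relative to the wild-type mean, lay at 0.35, 0.0088 and -0.25 on the SMA arrays and at -0.19, 0.47 and -0.36 on the transplanted arrays, so that SMA 1 and transplanted SMA 2 were highest, as for Stmn3. The summed signal of its 27 genes was 8833 to 9644 in wild type, 6578 to 11160 in SMA and 6278 to 13410 in transplanted SMA. Stmn3 had r = 0.854 and rho = 0.883 with the mean of this list, and Tubb3 the least of the 5 with r = 0.625 and rho = 0.583. Oligodendrocyte markers, whose summed signals were 34220 to 39720, 25660 to 45700 and 34470 to 47840 in the 3 groups, lay the other way for these 5 genes, with r of -0.727 (Stmn2) to -0.421 (Uchl1). Oligodendrocyte precursor markers (5 genes) lay the same way as the 5 genes, with r of 0.727 (Gap43) to 0.857 (Tubb3). None of 56 such correlations, of 8 genes with 7 marker lists, passed in an exact permutation test (smallest adjusted p = 0.081). Leaving out the 2 arrays farthest from the median gave r of 0.681 to 0.758 with the neuron list, -0.533 to -0.267 with oligodendrocyte markers and 0.785 to 0.887 with precursor markers. Microglial markers had r of -0.394 to -0.183 with the 5 genes and 0.365 with Mapt. In transplanted SMA minus SMA, where all 8 members were negative, all 10 tested microglial markers were negative too (median -0.81). Of these 10, 4 had an unadjusted p under 0.05 in limma, against 2.46% of all tested probe sets lower at that p. None passed the threshold. Their summed signal was 6679 to 14490 in wild type, 10480 to 12600 in SMA and 5601 to 11570 in transplanted SMA. In the same comparison the 5 tested precursor and 5 tested skeletal muscle markers were all negative. Positive were 12 of 14 oligodendrocyte, 14 of 25 neuron, 7 of 12 astrocyte and 5 of 8 fibroblast and meninges markers. The 2 tested motor neuron markers, Isl2 (0.72) and Ache (0.67), were higher with no overlap between groups. The part of cell content in the members' values was not tested.

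When each array was centred on the neuron list, the 6 pairs had r of 0.708 to 0.949, while Uchl1 had r of 0.0988 to 0.536 with the 4 genes. On this scale the same values have been taken from both genes of a pair, which can itself raise r. Map1b with Stmn1, for example, went from -0.414 to 0.463. The centred r therefore cannot show whether the pairs varied together apart from neuron content. The differences between groups on that scale were 0.30 for Stmn2 and 0.45 for Tubb3 in SMA minus wild type, and -0.41 and -0.68 in transplanted SMA minus SMA (SE 0.39 to 0.4), with 0 member probe sets past the threshold. Mapt gave -0.72 (SE 0.39) in transplanted SMA minus SMA.

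**Figure D5:**
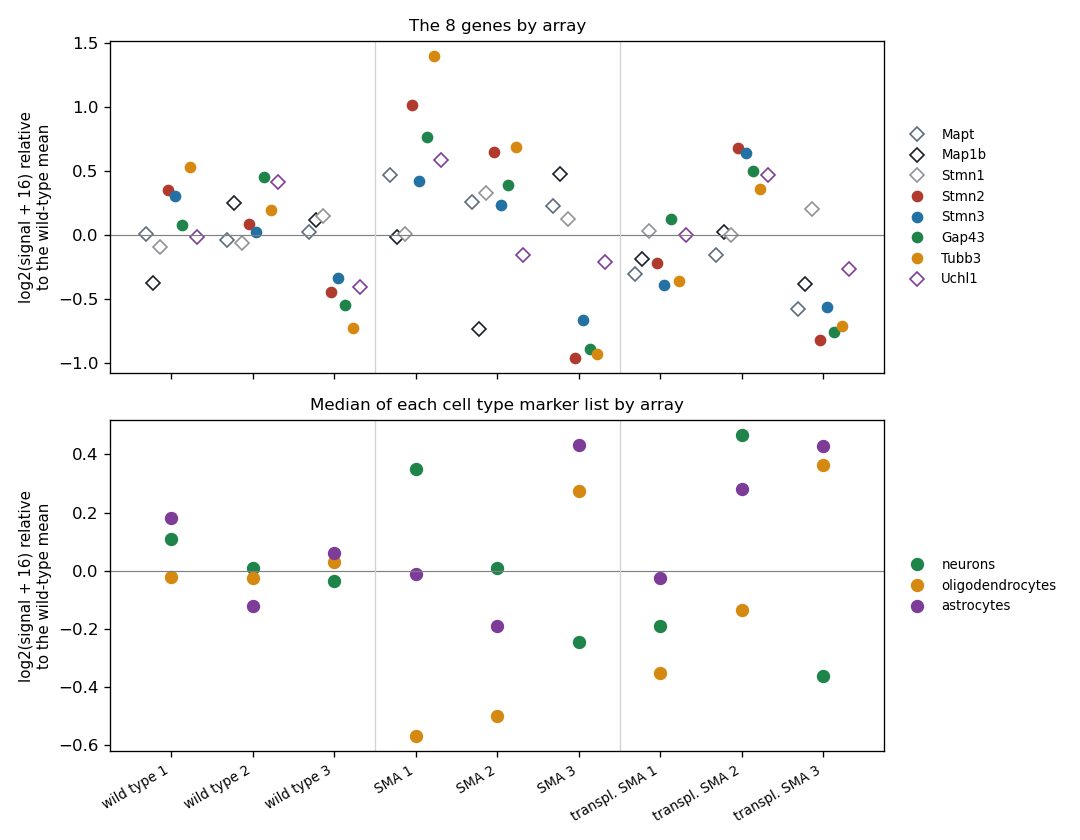
Top, log2(signal + 16) of the 8 genes on each array relative to the mean of the 3 wild-type arrays, with Stmn2, Stmn3, Gap43 and Tubb3 as filled circles and the other genes as open diamonds; bottom, the median of 3 cell type marker lists on the same scale. The filled circles lie below 0 on the 3 arrays numbered 3, with medians of -0.49, -0.91 and -0.73. They lie above 0 on wild type 1, wild type 2, SMA 1, SMA 2 and transplanted SMA 2.

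The SMA values of these genes rest on few arrays. SMA 1 and SMA 2, which carried Stmn2 at 818.9 and 633.2, also had Acta1, the actin of skeletal muscle, at 1288.7 and 1413.7 against at most 27.1 elsewhere. They had the X-silencing RNA Xist at 600.7 and 879.5, as had transplanted SMA 1 and transplanted SMA 2 (733 and 739.6), and SMA 3 and the wild-type arrays read at most 47.6. The Y-linked gene Eif2s3y read 0.1 to 0.5 on those 4 arrays and 49 to 108.9 on SMA 3 and the wild-type arrays. On transplanted SMA 3 both genes were high, 366.1 for Xist and 84.8 for Eif2s3y, although the labels give 1 animal per array; sex is not given in the labels. Without SMA 1 and SMA 2, the differences in SMA minus wild type turned to -0.96 for Stmn2, -0.92 for Tubb3, -0.89 for Gap43 and -0.66 for Stmn3. Without SMA 3 they were 0.84, 1.05, 0.58 and 0.33. With SMA 3 as the only SMA array, its spread is assumed to be that of the other groups. Either way 0 member probe sets passed in limma. The part of muscle RNA and of sex in these values was not tested.

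Other genes of the same processes were tested from pathway lists, and none passed the threshold in any comparison. Of 31 further axon growth and microtubule genes, 21 had a positive difference in SMA minus wild type (median 0.069) and 14 in transplanted SMA minus SMA (median -0.018). At an unadjusted p under 0.05 there were 1 higher and 1 lower in the first comparison, and 0 higher and 2 lower in the second. Over all tested probe sets 2.71% were higher and 3.32% lower in the first at that p, 2.32% and 2.46% in the second, and 3.27% and 3.28% in transplanted SMA minus wild type. In SMA minus wild type, Rtn4 (Nogo, an inhibitor of axon growth) gave -0.36 (SE 0.13, limma adjusted p = 0.719). The axonal adhesion molecule Cntn1 gave 0.53 (SE 0.24), and these 2 genes had the smallest p. In transplanted SMA minus SMA they were Dpysl4 of the collapsin response mediators at -0.46 (SE 0.17) and the plus-end protein Clip1 at -0.37 (SE 0.16), both at an adjusted p of 0.933. In transplanted SMA minus wild type, Cntn1 gave 0.71 (SE 0.24, adjusted p = 0.698) and Rtn4 -0.33 (SE 0.13).

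Tubulins and their folding cofactors, 14 genes, had medians of -0.015 in SMA minus wild type and 0.022 in transplanted SMA minus SMA, with 0 at an unadjusted p under 0.05. The folding cofactor Tbce, whose loss causes a motor neuron disease in mice, gave 0.43 (SE 0.23, limma adjusted p = 0.867) and Tubb4a -0.25 (SE 0.3) in SMA minus wild type. For transplanted SMA minus SMA, Tubb4b gave 0.31 (SE 0.18) and Tubb4a 0.50 (SE 0.3), and in transplanted SMA minus wild type Tuba4a gave 0.23 (SE 0.14) and Tbcd 0.26 (SE 0.17). Kinases and phosphatases that act on tau, stathmins and Gap43, 24 genes, had medians of -0.0013 and -0.077, again with 0 at an unadjusted p under 0.05. The neuronal kinase Mapk10 gave -0.86 (SE 0.43) in SMA minus wild type with no overlap between groups, and Mark1 0.36 (SE 0.2). Mapk9 gave 0.29 (SE 0.16) in transplanted SMA minus SMA, with every transplanted array above every SMA array, and Prkcb -0.39 (SE 0.22), with overlap. Against wild type, the transplanted arrays gave -0.90 (SE 0.43) for Mapk10 and 0.50 (SE 0.25) for Prkaca.

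Of 7 ubiquitin hydrolase and ubiquitin genes, Usp14, a hydrolase bound to the proteasome, gave 0.61 (SE 0.16, limma adjusted p = 0.523) in transplanted SMA minus wild type, 0.39 (SE 0.16) in transplanted SMA minus SMA and 0.21 (SE 0.16) in SMA minus wild type. Usp8 gave -0.40 (SE 0.21) in SMA minus wild type and -0.48 (SE 0.21) in transplanted SMA minus wild type. Usp9x gave -0.36 (SE 0.18) in transplanted SMA minus SMA. The values of Usp14, and those of Mapk10, Mark1, Tbcd and Mbp above, come from probe sets with the suffix _x_at, whose probes may cross-hybridise. Transcription factors linked to axon growth were 13 with a probe set, of which 7 were tested. The list does not separate factors that promote growth from those that restrain it. All 7 had a positive difference in SMA minus wild type (median 0.18, 1 at an unadjusted p under 0.05 in limma), where 3676 of 7254 named genes were positive. Of the same 7, in transplanted SMA minus SMA, 4 were positive and 3 negative (median 0.069), and Klf7 (-0.38, SE 0.2) and Stat3 (-0.33, SE 0.21) were below SMA with no overlap between groups. Jun, a factor that neurons switch on after axon injury, gave 0.56 (SE 0.17, limma adjusted p = 0.933) in transplanted SMA minus SMA. Every transplanted array lay above every SMA array for Jun. In transplanted SMA minus wild type, Jun gave 0.64 (SE 0.17, limma adjusted p = 0.523). There 6 of the 7 were positive (median 0.25). Of them Jun, Klf4 and Klf9 (0.68, SE 0.24) had an unadjusted p under 0.05 in limma, against 3.27% of all tested probe sets higher. Stat3 gave 0.58 (SE 0.21, adjusted p = 0.732) and Klf9 0.49 (SE 0.24) in SMA minus wild type, and Klf4 0.97 (SE 0.32, adjusted p = 0.698) in transplanted SMA minus wild type.

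The genes whose signals were most like each member, of 7246 others, were named by Pearson r over the 9 arrays, as a description. For Stmn2 they were Mapk8 (0.986), Ina (0.973) and D430019H16Rik (0.967), for Stmn3 Prkce (0.965), Vsnl1 (0.951) and Prepl (0.951), and for Gap43 Shd (0.99), Bag6 (0.968) and Dnajc11 (0.966). For Tubb3 they were Cdo1 (0.989), Zfpm2 (0.981) and Meis2 (0.977), and for Uchl1 Dohh (0.945), Npdc1 (0.945) and Pou6f1 (0.93). For Map1b they were Purb (0.899), Csnk1g1 (0.893) and Slc25a23 (0.886), for Stmn1 Eapp (0.944), Lrrfip1 (0.923) and Crnkl1 (0.909), and for Mapt Kmt2e (0.926), Mdm2 (0.923) and Trrap (0.901). After the group means were taken out, the value for Stmn2 with Mapk8 was 0.995, and that for Mapt with Kmt2e 0.702.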

How the data were processed

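The authors deposited 1 linear intensity per probe set and array, made with MAS5 per the submitters' processing notes; its version was not given in the sources used here, and the arrays' equal trimmed means show a common scaling. Of 22690 probe sets, 64 controls were left out, and 20380 of the remaining 22626 named 1 gene. By gene ID, 20364 symbols were compared with RefSeq and 0 differed. Each intensity had 16 added and was taken to log2, so changes of dim genes are understated. Testing covered the brighter 50% by mean over 9 arrays (11313 probe sets). The fit used limma 3.58.1 under R 4.3.3 (lmFit, then eBayes with trend, a mean per group, 6 residual degrees of freedom), two-sided, with Benjamini-Hochberg adjustment over all tested probe sets. The labels give 1 animal per array, so the limma p-values rest on the spread between arrays. That spread holds animal, capture, amplification and array together, and 3 arrays per group limit the precision. On simulated data for SMA minus wild type with 11313 probe sets, 42.5% of changes of 1 log2 unit and 95.5% of changes of 2 were recovered. There were 6 and 14 false calls beside 85 and 191 recovered changes. The 200 changed probe sets were drawn from all tested ones, with independent noise. These averages therefore do not give the recovery for Stmn2, Stmn3, Gap43 and Tubb3, whose within-group SD lay far above the median. A gene is represented by its brightest probe set. Named genes were the members, the 3 most alike genes of each, and up to 2 genes per list and comparison with the smallest p. Members, lists and tests were chosen with earlier results of these data known. Exact permutation tests enumerated every arrangement in Python 3.11.15. Alternatives covered normalisation, pseudocount, filter, variance moderation, array weights, the samples in the fit and the sample number as a block.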

Additional observations from a re-analysis of the deposited data

How the results depend on the processing

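In 25 other settings per comparison, 0 member probe sets passed the threshold in any of the 3 comparisons, while over all probe sets the count ranged from 0 to 15 in SMA minus wild type (5 as reported), 0 to 8 in transplanted SMA minus SMA (0) and 0 to 15 in transplanted SMA minus wild type (0). Of the differences of single genes, 536 kept their sign and 61 turned it; none had been called, and the causes were not tested. Without SMA 1 and SMA 2, SMA minus wild type became 0.48 for Map1b, -0.96 for Stmn2, -0.66 for Stmn3, -0.89 for Gap43, -0.92 for Tubb3 and -0.21 for Uchl1, and transplanted SMA minus SMA became 0.84 for Stmn2, 0.55 for Stmn3, 0.85 for Gap43, 0.69 for Tubb3 and 0.28 for Uchl1. Without wild type 3 and SMA 3, transplanted SMA minus SMA was 0.19 for Map1b and transplanted SMA minus wild type -0.13 for Uchl1. Without the 3 arrays numbered 3, a setting chosen after seeing the data, transplanted SMA minus SMA was 0.29 for Map1b and 0.020 for Uchl1, and transplanted SMA minus wild type 0.012 for Stmn2 and 0.042 for Gap43. Array weights gave -0.11 for Uchl1 in SMA minus wild type, and 0.20 for Map1b and 0.17 for Uchl1 in transplanted SMA minus SMA. Quantile normalisation gave 0.014 for Uchl1 in transplanted SMA minus SMA, median centring -0.060 for Stmn3 in SMA minus wild type and -0.0067 for Uchl1 in transplanted SMA minus wild type, and a pseudocount of 1 gave -4.78e-05 for Stmn3 in SMA minus wild type. Tubb3 was below the stricter filter (brighter 25%) and has no value there.

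Leaving out each array in turn, SMA minus wild type ranged from -0.37 to 0.24 for Map1b, -0.15 to 0.84 for Stmn2, -0.21 to 0.33 for Stmn3, -0.25 to 0.58 for Gap43, -0.12 to 1.05 for Tubb3 and -0.18 to 0.28 for Uchl1. Transplanted SMA minus SMA ranged from -0.42 to 0.19 for Map1b, -0.15 to 0.0095 for Stmn1, -0.95 to 0.033 for Stmn2, -0.48 to 0.12 for Stmn3, -0.62 to 0.22 for Gap43 and -0.20 to 0.26 for Uchl1. Transplanted SMA minus wild type ranged from -0.52 to 0.23 for Stmn2, -0.48 to 0.13 for Stmn3, -0.31 to 0.31 for Gap43, -0.60 to 0.032 for Tubb3 and -0.13 to 0.28 for Uchl1. Mapt kept its sign in all 25 settings of each comparison, by its brightest probe set or, where that was the setting, the mean of its probe sets. Its dimmest probe set, 1417885_at, had the opposite sign in transplanted SMA minus wild type (0.56) and in transplanted SMA minus SMA (0.0063) in the main fit.

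Groups share sample numbers. Deviations of same-numbered arrays from their group means correlated at -0.0832 to 0.453, under 0.1 for 3 of 9 pairs. The pairs numbered 3 gave 0.453, 0.136 and 0.273. An array correlated best with its own number in 11 of 18 comparisons, each with 3 numbers to choose from, which is more than an even share. Whether the numbers stand for a shared step was not tested. They come from the sample titles, and the main fit did not take them to pair animals. With the sample number as a replicate block, 0 member probe sets passed in each comparison and 5, 0 and 0 over all probe sets.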
